A study of Homo sapiens with 17 samples.

Results

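The mTOR pathway is described here through 10 genes: the kinase MTOR, its partners RPTOR and RICTOR, its activator RHEB, the brakes TSC1, TSC2 and DDIT4, the translation repressors EIF4EBP1 and EIF4EBP2, and LARP1. They were chosen by symbol from the table of transcript levels, which holds 9699 genes, and all 10 were present. Each has 12 values, an RNA-Seq and a Ribo-Seq level in 6 columns. Among the 9192 genes whose geometric mean over the 12 columns was at least 2 FPKM (fragments per kilobase of transcript, scaled to the reads of the library), all 10 were again present.

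The cells were BJ, human primary skin fibroblasts that were immortalised with hTERT, the catalytic subunit of telomerase, in every condition. RNA-Seq (9 samples) measured poly(A) RNA, and Ribo-Seq (8 samples) measured the RNA fragments that ribosomes protect from nuclease. Proliferating cells grown in serum form 2 columns, C run 1 (a value that combines 2 samples per assay) and C run 2 (1 sample per assay). Quiescent cells (Q, 2 samples per assay) were depleted of serum. Cells with a tamoxifen-inducible RASG12V, an oncogenic form of RAS, received 4-OHT-tamoxifen for 5 days (pre-senescent, preS, with 2 RNA samples and 1 Ribo-Seq sample) or 14 days (senescent, S, with 1 sample per assay). The cells labelled transformed (Tr, 1 sample per assay) carried knockdowns of p16INK4A and p53 and SV40 small T, and were transduced with a retroviral RASG12V construct, pBabe-puro-RASG12V. The labels of the C and Q samples name no RAS construct. Following the study's methods, Q and preS are compared with C run 1, and S and Tr with C run 2, the proliferating cells of the same sequencing run.

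mTOR is a kinase that couples nutrients, growth factors and energy to protein synthesis. It works in 2 complexes, mTORC1, defined by RPTOR, and mTORC2, defined by RICTOR, and mTORC1 is switched on at the lysosome by the small GTPase RHEB. The TSC1 and TSC2 proteins form a complex that turns RHEB off, and DDIT4 (also called REDD1) acts through that complex under hypoxia, energy stress and DNA damage. Active mTORC1 phosphorylates the 4E-BP proteins, made from EIF4EBP1 and EIF4EBP2, and thereby releases the cap-binding factor eIF4E, and it also phosphorylates LARP1, which binds mRNAs that start with a 5′ terminal oligopyrimidine (TOP) tract, such as those of ribosomal proteins. Most of this control is by phosphorylation and protein binding, which neither assay measures.

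The table holds 1 value per column and no value for a single replicate, so no difference below carries an SD or a p-value. A gene is counted as past 2-fold when its log2 ratio lies beyond 1 in either direction, and each count of the 10 is given with the share of all 9192 genes past 2-fold in the same comparison. Translation efficiency (TE) is the Ribo-Seq FPKM divided by the RNA FPKM. In bulk samples such as these, fewer cells of a kind and less RNA per cell cannot be told apart. C run 2 against C run 1 is the only repeat of a condition, and there culture and sequencing run cannot be told apart. The paper reports lower reproducibility between runs than within a run, so this comparison does not measure the spread within a run. In this comparison 2 of 10 were past 2-fold in RNA level (7.66% of all genes), 2 of 10 in Ribo-Seq level (18.3%) and 2 of 10 in TE (9.32%), and the largest ratios were those of DDIT4 and EIF4EBP1 in RNA and of EIF4EBP2 in Ribo-Seq.

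Some columns stood apart or went against their labels. The Ribo-Seq sample titled as C run 2 carries a condition label of senescence and the one titled as S a label of proliferation. Samples were grouped by title. Across the 9192 genes the Ribo-Seq S column had a Spearman correlation of 0.868 with the RNA S column and 0.731 with RNA C run 2, while Ribo-Seq C run 2 had 0.831 with RNA C run 2 and 0.748 with RNA S. CDKN1A (p21), a p53 target, was at 548 FPKM in Ribo-Seq S and 223 in Ribo-Seq C run 2, and MKI67, a marker of cycling cells, was at the table's lowest value of 1 in both S columns. CDKN2A, the gene of p16INK4A, was at 12.6 FPKM in RNA labelled Tr against 6.75 in C run 2, which goes against the knockdown label, but below the 17.2 of C run 1, and in Ribo-Seq it was at 5.51 in Tr, 8.92 in C run 2 and 13 in C run 1; its row is 1 transcript of a locus with several products. HRAS lay between 1254 and 2415 FPKM in RNA in both C columns, Q, preS and S, and at 312 in Tr. All 8 fibroblast markers were in the table, and 0 of 5 markers of leukocytes, epithelium and endothelium were. TOP2A, a marker of cycling cells, was not in the table either, although MKI67 was at 73.9 FPKM in RNA in C run 1. Absence from the table therefore does not show absence of expression.

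**Figure D1:**
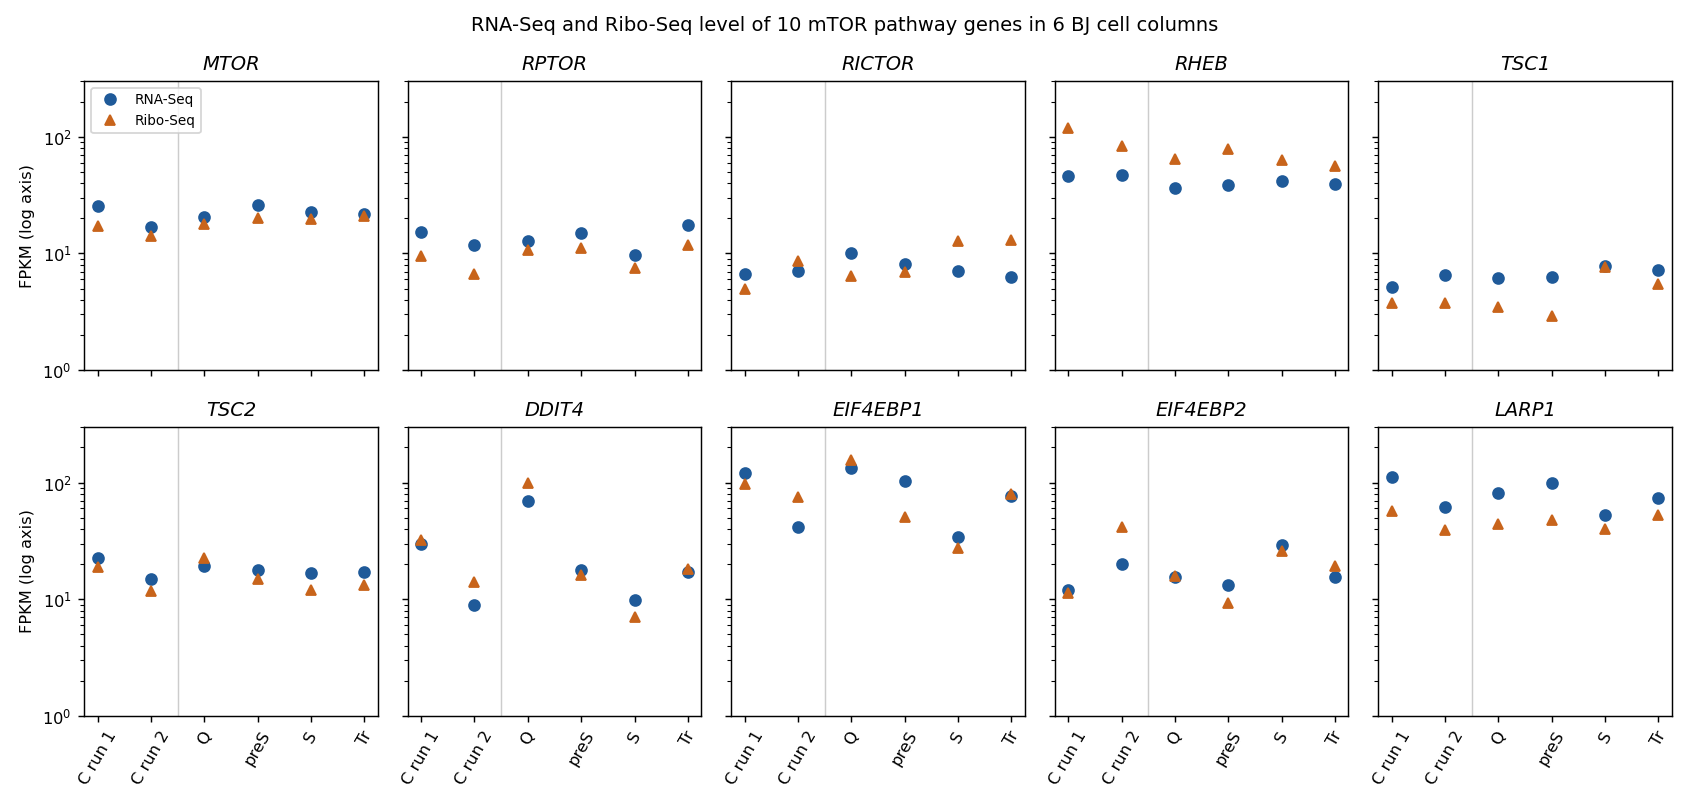
Level of each of the 10 genes in FPKM (log axis) in the 6 columns, with circles for RNA-Seq and triangles for Ribo-Seq, 1 value each and no replicate error. DDIT4 has the widest range, with Q at 69.1 FPKM in RNA and 99.3 in Ribo-Seq, while the RNA of RHEB stays between 36.7 and 46.8.

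DDIT4 had the widest range of the 10 genes in both assays, and its highest values were in quiescent cells. Its RNA was at 29.6 FPKM in C run 1, 8.99 in C run 2, 69.1 in Q, 17.7 in preS, 9.94 in S and 17 in Tr. Its Ribo-Seq level was 32.5 in C run 1, 14.2 in C run 2, 99.3 in Q, 16.3 in preS, 7.09 in S and 18.2 in Tr. Q therefore lay above every other column in both assays, and the highest and lowest columns differed 7.69-fold in RNA and 14-fold in Ribo-Seq. The 2 proliferating columns lay on either side of preS, S and Tr in RNA.

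The 250 bases before the annotated start of DDIT4 are shown because the gene is induced by hypoxia and stress, and those of EIF4EBP2 because its TE difference in senescent cells was the largest of the 10 genes. Both are RefSeq sequences on GRCh38.p14, a later build than the hg19 named for the files. Capitals mark the core of the hypoxia response element (ACGTG or GCGTG), the CCAAT box and the first bases of the cAMP response element (TGACG), on either strand. The motifs were chosen after the values were seen.
DDIT4, chr10:72273674-72273923, plus strand: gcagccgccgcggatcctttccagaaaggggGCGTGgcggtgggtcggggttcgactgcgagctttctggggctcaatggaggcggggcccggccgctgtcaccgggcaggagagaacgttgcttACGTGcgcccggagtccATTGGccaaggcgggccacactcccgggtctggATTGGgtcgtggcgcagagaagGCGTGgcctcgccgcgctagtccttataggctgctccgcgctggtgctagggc
EIF4EBP2, chr10:70403895-70404144, plus strand: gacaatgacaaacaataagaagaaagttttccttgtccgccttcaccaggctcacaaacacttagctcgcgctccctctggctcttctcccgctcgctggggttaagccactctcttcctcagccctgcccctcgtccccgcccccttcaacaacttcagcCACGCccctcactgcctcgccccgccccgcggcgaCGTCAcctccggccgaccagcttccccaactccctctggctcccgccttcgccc
The DDIT4 window holds the hypoxia core at 3 places and the CCAAT box, read on the minus strand as ATTGG, at 2. In EIF4EBP2 the hypoxia core occurs at 1 place and the TGACG letters at 1, both read on the minus strand. Of 35116 RefSeq windows of this length, 43.2% hold the hypoxia core, 32% the CCAAT box and 21.2% TGACG, so each is common. Windows were found for 9 of the 10 genes (13 windows, since some genes have several starts), and 9 of the 13 held the hypoxia core, 5 the CCAAT box and 4 TGACG. The hypoxia core can overlap TGACG, as TGACGTG holds both. A match is a description of letters, and the start used in these cells is not known from the table.

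In quiescent cells DDIT4 was the only one of the 10 genes past 2-fold. It was 2.33-fold higher in RNA (log2 ratio 1.22) and 3.06-fold higher in Ribo-Seq (1.61) than in C run 1, and 1 of 10 genes was past 2-fold in each of these measures, against 6.36% of all genes in RNA and 16.9% in Ribo-Seq. The difference in RNA was larger than that of 97.5% of all genes. Its TE in Q differed from that in C run 1 by 0.39 on the log2 scale, and no member was past 2-fold in TE (0 of 10, against 7.55% of all genes). Against C run 2, the proliferating column of the other run, the RNA of DDIT4 in Q was 7.69-fold higher. The log2 ratio of C run 2 to C run 1, which spans both runs, was -1.72 in RNA, larger in size than the difference between Q and C run 1.

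After 5 days of RAS, DDIT4 was lower in both assays, just short of 2-fold in Ribo-Seq (1.99-fold lower). The log2 ratio to C run 1 was -0.74 in RNA, below all but 4.08% of genes. Against C run 2 the same column was 1.97-fold higher in RNA, so the direction depended on which proliferating column was used. In senescent cells its RNA was level with C run 2 (log2 ratio 0.14), while its Ribo-Seq level was 2-fold lower, 0.501 times that of C run 2. Its TE was 1.58 in C run 2 and 0.713 in S, a 2.21-fold difference. In the columns labelled Tr, DDIT4 was 1.89-fold higher in RNA and 1.28-fold higher in Ribo-Seq than in C run 2.

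The TSC1 and TSC2 genes encode the complex that holds RHEB off. TSC1 RNA was at 5.11 FPKM in C run 1, 6.58 in C run 2, 6.12 in Q, 6.24 in preS, 7.76 in S and 7.27 in Tr, the narrow range of a gene that was low throughout. In Ribo-Seq it was at 3.78 in C run 1, 3.75 in C run 2, 3.47 in Q, 2.92 in preS, 7.66 in S and 5.5 in Tr. S was the highest column in both assays. TSC1 was 2.04-fold higher in Ribo-Seq in S than in C run 2, and 2.03-fold higher than in C run 1, since the proliferating columns had a log2 ratio of -0.01 to each other. Its TE was 0.57 in C run 2 and 0.987 in S, and 0.74 in C run 1 and 0.468 in preS. These levels are low, and the reads behind them were not recovered from the table.

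TSC2 RNA was at 22.8 FPKM in C run 1, 14.9 in C run 2, 19.5 in Q, 17.9 in preS, 16.7 in S and 17.3 in Tr. Ribosome footprints gave 18.8 in C run 1, 11.8 in C run 2, 22.5 in Q, 14.8 in preS, 12.1 in S and 13.3 in Tr. The highest and lowest of the RNA values were the proliferating columns themselves. No comparison with the same run placed TSC2 past 2-fold, and its log2 ratios lay between -0.34 and 0.49 over the 3 measures. As a ratio of levels, TSC2 to TSC1 in Ribo-Seq was highest in Q at 6.5 and lowest in S at 1.58, with 4.96 in C run 1 and 3.14 in C run 2.

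RHEB, the GTPase that these brakes act on, had the narrowest RNA range of the 10 genes. Its RNA was at 46 FPKM in C run 1, 46.8 in C run 2, 36.7 in Q, 38.4 in preS, 42.1 in S and 39.1 in Tr, and the highest and lowest columns differed 1.28-fold. In Ribo-Seq the values were 118 in C run 1, 83.4 in C run 2, 65 in Q, 78.4 in preS, 63.6 in S and 56.1 in Tr. Both proliferating columns were above the other 4 in both assays. Against its own run, RHEB was lower in Ribo-Seq in each state, by 1.81-fold in Q, 1.5-fold in preS, 1.31-fold in S and 1.49-fold in Tr, none of them past 2-fold. C run 2 was 1.41-fold below C run 1, a difference between runs, and the spread within a run is not known from the table. RHEB also had a TE above 1 in every column, from 1.43 in Tr to 2.56 in C run 1, and no other member did.

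MTOR, the kinase, kept a similar level in every column. In RNA it was at 25.4 FPKM in C run 1, 16.9 in C run 2, 20.5 in Q, 26 in preS, 22.6 in S and 21.9 in Tr. Its Ribo-Seq level was 17 in C run 1, 14 in C run 2, 17.8 in Q, 20 in preS, 19.9 in S and 21 in Tr. C run 2 was the lowest column in both assays. None of its log2 ratios was past 2-fold, and the largest in Ribo-Seq was 0.59 for Tr.

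RPTOR, the subunit that recruits substrates to mTORC1, had its highest values in the columns labelled Tr. In RNA it was at 15.3 FPKM in C run 1, 11.8 in C run 2, 12.8 in Q, 14.8 in preS, 9.78 in S and 17.6 in Tr. In Ribo-Seq it was at 9.51 in C run 1, 6.61 in C run 2, 10.7 in Q, 11.2 in preS, 7.46 in S and 11.8 in Tr. RPTOR labelled Tr was 1.49-fold higher than C run 2 in RNA and 1.79-fold higher in Ribo-Seq, but 1.15-fold and 1.24-fold higher than C run 1.

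RICTOR, the defining subunit of mTORC2, was low in RNA, with its highest column in quiescent cells. Its RNA was at 6.72 FPKM in C run 1, 7.05 in C run 2, 10 in Q, 8.05 in preS, 7.08 in S and 6.32 in Tr. Its Ribo-Seq level was 4.97 in C run 1, 8.62 in C run 2, 6.39 in Q, 6.89 in preS, 12.7 in S and 13 in Tr. The 3 columns of run 2 had the highest Ribo-Seq values, and run and state cannot be told apart across runs. Within that run the TE of RICTOR was 1.22 in C run 2, 1.8 in S and 2.06 in Tr, and the log2 ratio in Tr, 0.75, was above that of 97.5% of all genes although short of 2-fold. Against C run 1, with a TE of 0.74, the ratios were 2.43-fold for S and 2.78-fold for Tr. The ratio of RPTOR to RICTOR in Ribo-Seq was 1.91 in C run 1, 0.767 in C run 2, 1.67 in Q, 1.62 in preS, 0.587 in S and 0.908 in Tr, above 1 in the 3 columns of run 1 and below 1 in those of run 2. In RNA the same ratio was above 1 in every column, from 1.28 in Q to 2.78 in Tr.

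EIF4EBP1 and EIF4EBP2 encode 4E-BP1 and 4E-BP2, which sequester eIF4E when mTORC1 is off. EIF4EBP1 RNA was at 119.6 FPKM in C run 1, 41.6 in C run 2, 132 in Q, 103 in preS, 34.1 in S and 76.9 in Tr. In Ribo-Seq the gene was at 96.4 in C run 1, 74.6 in C run 2, 156 in Q, 50.6 in preS, 27.3 in S and 79.2 in Tr. Q was the highest column and S the lowest in both assays. EIF4EBP1 in Ribo-Seq was 1.62-fold higher in Q and 1.9-fold lower in preS than in C run 1, and 2.74-fold lower in S than in C run 2. In RNA the corresponding log2 ratios were 0.14, -0.22 and -0.29. The proliferating columns differed by -1.52, which includes the difference between runs.

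EIF4EBP2 had a different profile from EIF4EBP1. Its RNA was at 12.1 FPKM in C run 1, 19.9 in C run 2, 15.6 in Q, 13.2 in preS, 29 in S and 15.5 in Tr. Its Ribo-Seq level was 11.3 in C run 1, 41.7 in C run 2, 15.7 in Q, 9.22 in preS, 25.9 in S and 19.4 in Tr. The highest RNA was in S, while the highest Ribo-Seq value was in C run 2, which lay above all other columns. EIF4EBP2 in Ribo-Seq was 2.16-fold lower in Tr than in C run 2, but 1.71-fold higher than in C run 1, so that the direction turned with the proliferating column.

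LARP1, which binds TOP mRNAs and cap structures, had RNA levels of 112 FPKM in C run 1, 61.8 in C run 2, 80.7 in Q, 99.4 in preS, 52.8 in S and 74.2 in Tr. In Ribo-Seq the gene was at 57.2 in C run 1, 39.5 in C run 2, 44.5 in Q, 47.9 in preS, 39.7 in S and 52.7 in Tr. The columns of run 1 were above those of run 2 in RNA, and C run 1 was the highest in both assays. LARP1 was past 2-fold in no comparison with its own run, and its Ribo-Seq range was 1.45-fold, the narrowest of the 10 genes. Its TE was low in every column, between 0.482 in preS and 0.751 in S.

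**Figure D2:**
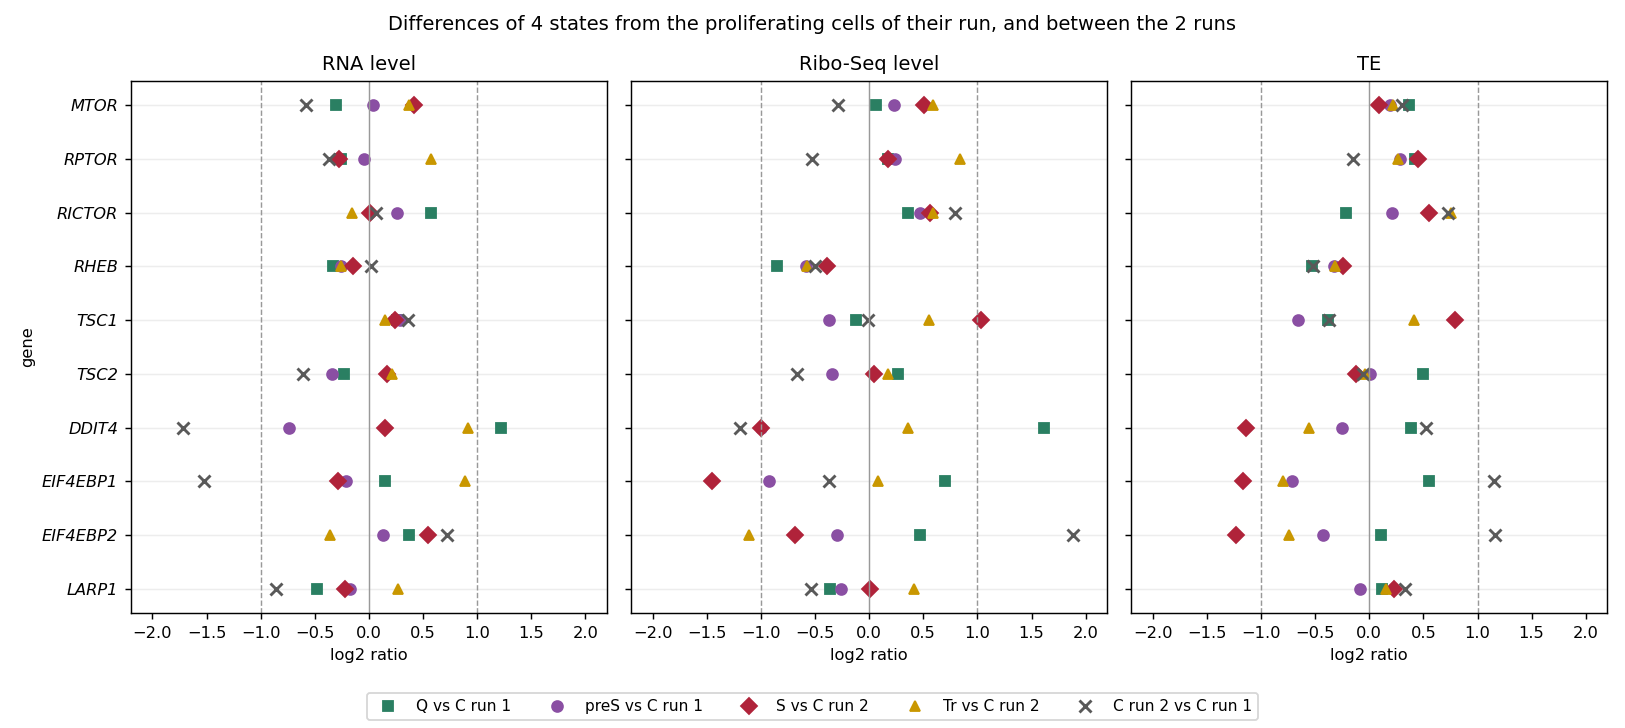
Log2 ratios of the 10 genes in RNA level, Ribo-Seq level and TE for Q and preS against C run 1 and S and Tr against C run 2, with crosses for C run 2 against C run 1 and dashed lines at 2-fold. In TE the S markers of DDIT4 (-1.14), EIF4EBP1 (-1.17) and EIF4EBP2 (-1.23) lie beyond the left line, and the crosses of EIF4EBP1 (1.15) and EIF4EBP2 (1.16) beyond the right one.

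After 5 days of RAS none of the 10 genes was past 2-fold. The count was 0 of 10 in RNA (3.71% of all genes), 0 of 10 in Ribo-Seq (17.2%) and 0 of 10 in TE (14.2%). In Ribo-Seq 7 of the 10 were below C run 1 and 3 above, and the median log2 ratio was -0.32 against -0.13 over all genes. The lowest values were those of DDIT4 at -0.995 and EIF4EBP1 at -0.93. In TE the median of the 10 was -0.17, close to the -0.15 of all genes.

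In quiescent cells the median of the 10 genes was -0.04 in RNA (all genes -0.01), 0.22 in Ribo-Seq (all genes -0.08) and 0.24 in TE (all genes -0.06). In TE 7 of the 10 were above C run 1, from 0.11 for EIF4EBP2 and LARP1 to 0.55 for EIF4EBP1, and RHEB had the lowest value at -0.53. All of these TE differences were under 2-fold.

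In senescent cells RNA and ribosome occupancy of the 10 genes differed. In RNA 0 of 10 were past 2-fold although 20% of all genes were, and the values lay between -0.29 and 0.54. In Ribo-Seq 2 of 10 were past 2-fold (27.6% of all genes), TSC1 above C run 2 and EIF4EBP1 below it, and the median of the 10 was 0.02 against -0.12 over all genes. Neither was counted with a threshold on the local SD, and TSC1 was not past 2-fold with log2(FPKM + 1), at 0.87. In TE 3 of 10 were past 2-fold against 9.2% of all genes, and all 3 were lower: DDIT4, EIF4EBP1 and EIF4EBP2. The brakes TSC1 and TSC2 were not among them, at 0.79 and -0.12. The TE differences of DDIT4, EIF4EBP1 and EIF4EBP2 were below those of all but 3.97%, 3.61% and 2.95% of genes, in that order. The other 7 members had log2 ratios of TE between -0.24 for RHEB and 0.79 for TSC1.

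These 3 TE differences held against C run 2 and not against C run 1. The TE of EIF4EBP1 was 0.799 in S, 1.79 in C run 2 and 0.806 in C run 1, so that S and C run 1 differed by -0.01 on the log2 scale. The TE of EIF4EBP2 was 0.892 in S, 2.09 in C run 2 and 0.937 in C run 1, a difference of -0.07 from C run 1. For DDIT4 the TE was 0.713 in S and 1.1 in C run 1, and S remained lower by 0.62 on the log2 scale in size, short of 2-fold. The values above go by the sample titles, with which the correlations between assays and the CDKN1A level go. With the Ribo-Seq columns of S and C run 2 exchanged, as the condition labels have them, the log2 ratios of TE became 0.85 for DDIT4, 1.74 for EIF4EBP1 and 0.15 for EIF4EBP2, and the Ribo-Seq ratios of TSC1 and EIF4EBP1 became -1.03 and 1.45.

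**Figure D3:**
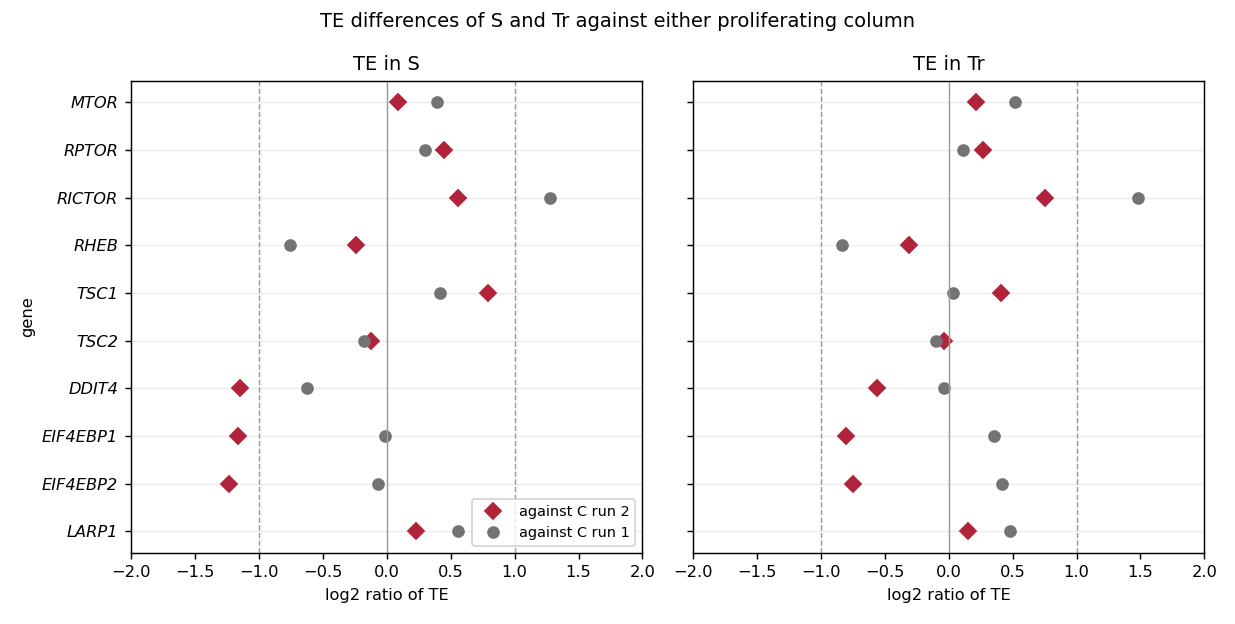
Log2 ratio of TE in S (left) and Tr (right) for each gene against C run 2, the column of the same run (diamonds), and against C run 1 (circles), with dashed lines at 2-fold. In S the diamonds of DDIT4, EIF4EBP1 and EIF4EBP2 lie past 2-fold and their circles at -0.62, -0.01 and -0.07 do not, while RICTOR is past 2-fold only against C run 1 (1.28 in S and 1.48 in Tr).

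In the columns labelled Tr, whose CDKN2A level in RNA was above that of C run 2, 0 of 10 genes were past 2-fold in RNA (9.45% of all genes), 1 of 10 in Ribo-Seq (11.8%) and 0 of 10 in TE (2.97%). The 1 gene was EIF4EBP2, described above. In RNA 7 of 10 were above C run 2, with DDIT4 at 0.92 and EIF4EBP1 at 0.88 the highest, while both were below C run 1, by -0.80 and -0.64. In Ribo-Seq 8 of 10 were above C run 2, and the median was 0.39 against 0.00 over all genes. The TE of EIF4EBP1 and EIF4EBP2 was lower than in C run 2, with log2 ratios of -0.80 and -0.75, the same direction as in S and in both cases above C run 1.

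The balance of the 4E-BP genes to their target followed the run as well as the state. The sum of EIF4EBP1 and EIF4EBP2 divided by EIF4E, all as FPKM in RNA, was 3.58 in C run 1, 0.903 in C run 2, 4.74 in Q, 2.43 in preS, 0.771 in S and 1.28 in Tr. In Ribo-Seq the same ratio was 1.17 in C run 1, 1.12 in C run 2, 2.59 in Q, 0.934 in preS, 0.468 in S and 0.819 in Tr. The proliferating columns were close in Ribo-Seq and far apart in RNA, while Q had the highest ratio and S the lowest in both assays. EIF4E itself was at 36.8 FPKM in RNA in C run 1, 68.1 in C run 2, 31.2 in Q and 81.9 in S. EIF4EBP1 exceeded EIF4EBP2 in every column of both assays, by 9.91-fold in RNA in C run 1 and 8.49-fold in Q but by 2.09-fold in C run 2 and 1.18-fold in S.

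**Figure D4:**
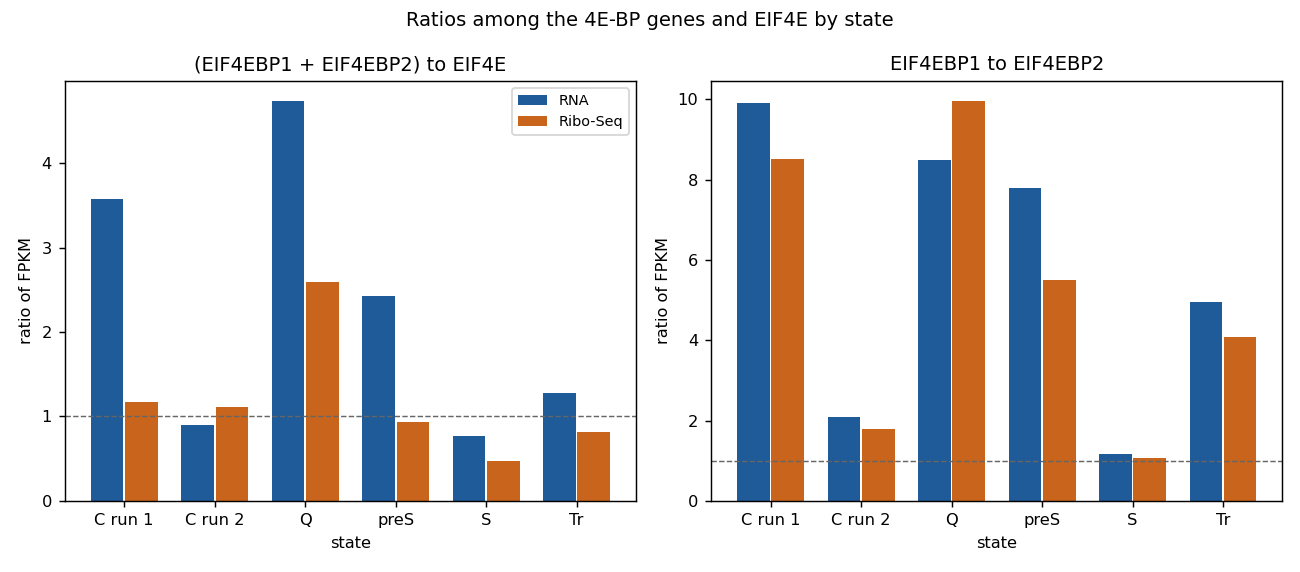
Ratio of FPKM of summed EIF4EBP1 and EIF4EBP2 to EIF4E (left) and of EIF4EBP1 to EIF4EBP2 (right) in the 6 columns, with 1 bar per assay and a dashed line at 1. Q has the highest ratio to EIF4E (4.74 in RNA, 2.59 in Ribo-Seq) and S the lowest (0.771 and 0.468), and in S the 4E-BP genes are nearly level with each other.

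The rest of the pathway was followed through gene lists. Of 9 other subunits and assembly factors of the complexes, 7 were in the table, and in Q and Tr 0 of 7 were past 2-fold in any measure. In senescent RNA 3 of 7 were past 2-fold (20% of all genes). The higher one was, AKT1S1 (PRAS40, an inhibitory subunit of mTORC1), at 34.5 FPKM in C run 2 and 77.1 in S, and the 2 lower ones were TELO2 (18 and 6.24) and TTI1 (9.37 and 4.21), which help assemble mTOR complexes. MLST8, a subunit of both complexes, was 1 of 7 past 2-fold in TE in S (9.2% of all genes), with a log2 ratio of -1.36. In preS the count was 0 of 7 in RNA and TE and 1 of 7 in Ribo-Seq (17.2% of all genes), PRR5L, whose preS value was at the lowest level the table allows.

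Of the growth factor input, 14 of 15 genes were in the table and 13 passed the filter. In Q 0 of 13 were past 2-fold in any measure. IGF1R, the receptor for insulin-like growth factors, was lower in RNA in each state with RAS: 10.96 FPKM in C run 1 against 4.9 in preS, and 11.6 in C run 2 against 3.63 in S and 4.61 in Tr. IRS2, an insulin receptor substrate, was at 4.65 in C run 2 and 1.3 in Tr. In RNA these made 1 of 13 in preS (3.71% of all genes) and 2 of 13 in Tr (9.45%), all lower, and in TE the count was 0 of 13 in every state.

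Of 11 energy and stress brakes, 10 were in the table. In Q 0 of 10 were past 2-fold in RNA, and SESN2 (Sestrin2, which inhibits mTORC1) was the 1 past 2-fold in Ribo-Seq (16.9% of all genes), at 15.5 FPKM in C run 1 and 39.1 in Q, with RNA at 14.6 and 27.4. In senescent RNA 2 of 10 were past 2-fold, the same share as the 20% of all genes. They were SESN2 at 8.24 in C run 2 and 16.7 in S, but 14.6 in C run 1, and DDIT4L (REDD2), the paralog of DDIT4, at 9.59 in C run 2 and 62.6 in S. In RNA labelled Tr, DDIT4L was at 36.6 and SESN1 (Sestrin1) at 2.18 against 5.15 in C run 2, 1 of 10 higher and 1 lower (9.45% of all genes past 2-fold). DDIT4L was also at 2.46 in C run 1, so that its proliferating columns differed by 1.96 on the log2 scale. DDIT4 and its paralog thus differed in order over the columns: DDIT4 was highest in Q in both assays and DDIT4L was highest in S. In Ribo-Seq labelled Tr, 4 of the 10 brakes were past 2-fold (11.8% of all genes), DDIT4L higher and 3 lower. The median of these 10 brakes was -0.64 against 0.00 over all genes. Among the lower ones, SESN1 (-1.81) and PRKAA2 (-1.29) were at 1.3 and 1.83 FPKM in Tr, near the table's lowest value. SESN1 was at 1.44 in C run 1. In TE, STK11 (LKB1, the kinase upstream of AMPK) had a log2 ratio of 1.17 in preS and -1.02 in S, with -1.04 between the proliferating columns, and DDIT4L had -1.30 in Q and -3.54 in preS, where its Ribo-Seq value was at the lowest level of the table.

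Of 26 genes of amino acid sensing at the lysosome, 20 were in the table and 18 passed the filter. In RNA 0 of 18 were past 2-fold in Q, preS and Tr, and 2 of 18 were in S, fewer than the 20% of all genes and both lower: MIOS at 10 FPKM in C run 2 and 3.79 in S, and ITFG2 at 7.41 and 3.49. In Ribo-Seq 4 of 18 were past 2-fold in S (27.6% of all genes), 3 of them lower, and the higher one was SLC38A9, a lysosomal amino acid transporter, at 1.74. In TE 3 of 18 were lower in S and 0 higher (9.2% of all genes), all subunits of the Ragulator complex that anchors mTORC1: C7orf59 (LAMTOR4) at -1.96, LAMTOR1 at -1.48 and HBXIP (LAMTOR5) at -1.23. These values were computed against C run 2 and depend on the sample titles. In C run 1 the Ribo-Seq and RNA levels were 115 and 107 FPKM for LAMTOR1, 71.4 and 64.5 for HBXIP and 88.8 and 11.7 for C7orf59. In C run 2 they were 167 and 85.3, 126 and 62.2, and 143 and 26.7. The TE of LAMTOR1 and HBXIP was thus lower in C run 1 than in C run 2, and that of C7orf59 higher. For C7orf59 the TE in S, 1.38, was below that of both proliferating columns. In Q the TE of RRAGB was past 2-fold, with a log2 ratio of 1.36, and its Ribo-Seq value in C run 1 was at the lowest level of the table. In preS FLCN (log2 ratio 1.12) and RRAGC (1.06) were past 2-fold in Ribo-Seq, both higher.

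Of 16 effectors of mTOR, 15 were in the table. In quiescent RNA 2 of 15 were past 2-fold (6.36% of all genes), both higher: LPIN1 (lipin 1) at 11.7 FPKM in C run 1 and 54.8 in Q, and PDCD4, an inhibitor of the helicase eIF4A, at 6.43 and 14.99. In Ribo-Seq 4 of 15 were past 2-fold in Q (16.9% of all genes), 3 of them higher, with ULK1, the kinase that starts autophagy, at 4.22 in C run 1 and 10.1 in Q. In quiescent TE 2 of 15 were lower (7.55% of all genes past 2-fold), EIF4B at -1.23 and RPS6 at -1.13. In preS and Tr 0 of 15 were past 2-fold in any measure, and in S LPIN1 was the 1 of 15 in RNA (13.3 in C run 2 and 29.4 in S), against 20% of all genes, and RPS6KB2 the 1 of 15 in TE (-1.22), against 9.2%. None of the 5 other LARP genes was past 2-fold in any comparison.

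LARP1 binds TOP mRNAs such as those of ribosomal proteins. The 80 genes taken by symbol as cytosolic ribosomal proteins were past 2-fold in TE more often than in RNA in Q, preS and S. They include a few genes with ribosomal-protein-like symbols, such as RPL7L1, RPL26L1 and RPS27L, and a TOP start was not required. In TE 50 of 80 were past 2-fold in Q (7.55% of all genes), 16 of 80 in S (9.2%) and 0 of 80 in Tr (2.97%), and in preS the 9 of 80 were a smaller share than the 14.2% of all genes. All of them were lower, and the medians in Q, preS, S and Tr were -1.10, -0.62, -0.65 and -0.02. In RNA 0 of 80 were past 2-fold in Q, preS and Tr and 1 of 80 in S. The 10 members had TE medians of 0.24 in Q, -0.17 in preS, -0.01 in S and 0.06 in Tr. RPS6 is counted both here and among the effectors. The annotated starts of these genes also differed: a C followed by 4 pyrimidines stood at the start in 0 of 13 member windows, in 56.1% of 82 windows of ribosomal protein genes and in 4.07% of all 35116 windows.

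**Figure D5:**
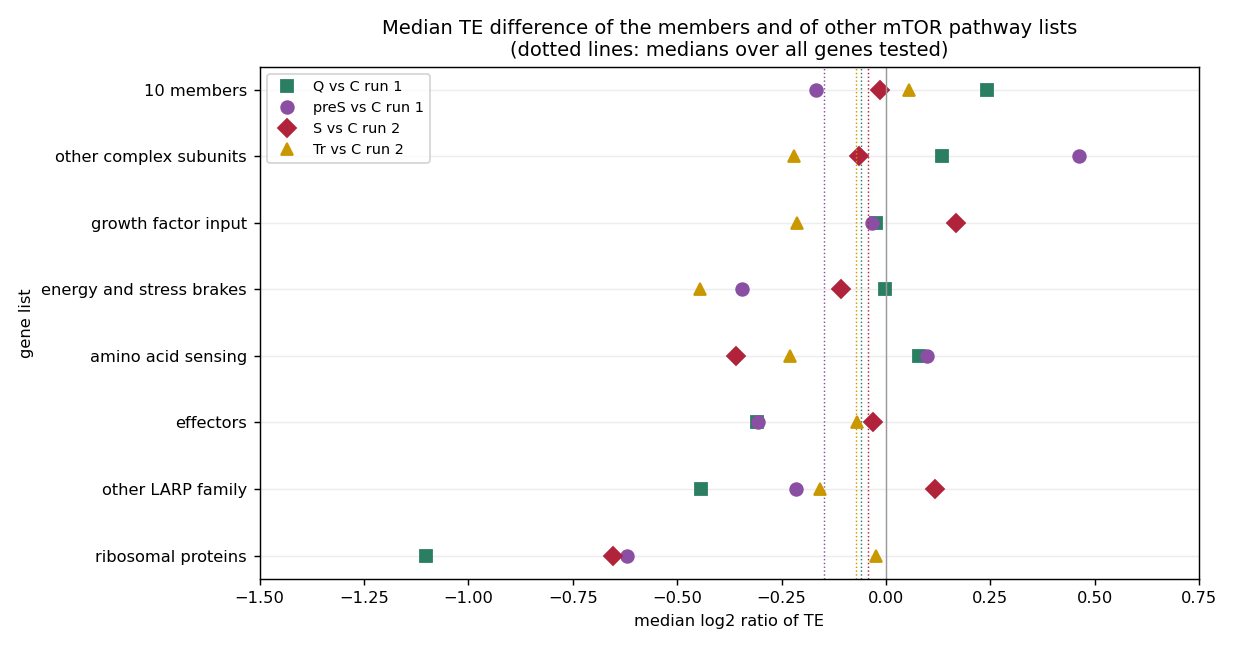
Median log2 ratio of TE of the 10 genes and of 7 other pathway lists in the 4 comparisons, with dotted lines at the median over all genes tested in each. The ribosomal proteins lie at -1.10 in Q, -0.65 in S and -0.62 in preS, and the 10 genes lie between -0.17 and 0.24.

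Among all 9192 genes, the ones most like a member were found by the root mean square difference of log2 FPKM over the 12 columns after each gene was centred on its own mean. This was done for the 4 members whose RNA ranged over at least 2-fold. Nearest to DDIT4 were SLC6A9 (0.482), CLCN6 (0.488) and ITGA10 (0.496), against a median of 1.24 over all genes. Nearest to EIF4EBP1 were ZBTB12 (0.321), SNX15 (0.343) and TRIM16 (0.347), with a median of 0.968. For EIF4EBP2 they were C9orf16 (0.187), PHPT1 (0.248) and DGKA (0.266), with a median of 0.868. For LARP1 they were SLX4 (0.147), CHML (0.179) and HIPK1 (0.185), with a median of 0.829. The distances of DDIT4 were larger than those of the other 3, but the distance grows with a gene's range, which was widest for DDIT4. The members are therefore not compared by it. None of the 12 nearest genes was in a pathway list.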

How the data were processed

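RNA-Seq (9 samples) and Ribo-Seq (8 samples) of BJ cells were compared. The deposited table gives FPKM, which the authors computed from reads aligned with Bowtie (version not given in the sources used here) to 1 protein-coding transcript per gene of an Ensembl annotation, counting unique reads over the whole transcript for RNA-Seq and over the coding sequence for Ribo-Seq. The submitters' processing notes name hg19. Values under 1 FPKM were set to 1 by the authors, and transcripts with few reads in every condition were left out. The samples of C run 1, of Q and of preS RNA are given as 1 column each. The study's methods report single-end RNA libraries for C run 2, S and Tr and paired-end ones for the rest. The table holds no read totals, and reads per gene could not be recovered from its values. The per-sample totals that the study lists elsewhere were not used here, and no counting interval is given.

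From these values log2 ratios and TE were computed with Python 3.11.15, pandas 2.3.3 and NumPy 2.4.6. A filter at a geometric mean of 2 FPKM was applied, and no pseudocount. The rule for counting was tried on simulated RNA levels, with changes larger than 2-fold and less noise than between the proliferating columns. TE was not simulated. With 1 column per condition no test was run, and a fold of 2 was the rule for counting. Alternatives were a fold of 1.5, log2(FPKM + 1), no filter, median-centred ratios, the other run's proliferating column, the study's kind of threshold that scales with the local SD at each expression level, and an exchange of the Ribo-Seq S and C run 2 columns. The 10 genes and the pathway lists were chosen with earlier results of these data known. All 10 genes are named in every comparison. At most 3 genes past 2-fold, those with the largest log2 ratios, are named per list and comparison, and 3 nearest genes for each member whose RNA range was at least 2-fold. Promoter windows came from RefSeq (GRCh38.p14) and were matched by symbol for 9 of 10 genes, all but EIF4EBP1. Results for a few genes of the lists and label checks are not reported here. Figures were drawn with matplotlib 3.10.9.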

Additional observations from a re-analysis of the deposited data

Results flagged for a closer look

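The TE of TSC1 lay on opposite sides of its proliferating column at the 2 times after RAS induction. Its log2 ratio of TE was -0.66 at 5 days against C run 1 and 0.79 at 14 days against C run 2. Each value rests on 1 column per assay and on a different proliferating column, and the difference between them was not tested. The TE of TSC1 was 0.74 in C run 1 and 0.57 in C run 2, a log2 ratio of -0.38, and its Ribo-Seq level was 2.92 FPKM in preS and 7.66 in S.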

How the results depend on the processing

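The counts of members past 2-fold kept to within 1.5 times in all 12 comparisons without the filter and with median-centred ratios. With a fold of 1.5 they became, with the share of all genes in parentheses, 3 in Q Ribo-Seq (41%), 1 in preS RNA (12.3%), 3 in preS Ribo-Seq (38.9%), 2 in preS TE (36.9%), 4 in S Ribo-Seq (49.96%), 2 in Tr RNA (23.7%), 4 in Tr Ribo-Seq (28.1%) and 3 in Tr TE (14.8%). With the proliferating column of the other run they were 2 in Q RNA (8.26%), 3 in Q Ribo-Seq (20.2%), 1 in Q TE (9.67%), 1 in preS RNA (11.5%), 1 in preS Ribo-Seq (24.1%), 2 in preS TE (17.5%), 4 in S RNA (29.4%), 5 in S Ribo-Seq (41.4%), 1 in S TE (18.5%), 2 in Tr Ribo-Seq (20.9%) and 1 in Tr TE (12.8%). With the threshold on the local SD they were 1 in Q TE (EIF4EBP1, 7.66%), 1 in preS RNA (DDIT4, 6.93%), 0 in S Ribo-Seq (7.42%), 0 in Tr Ribo-Seq (6.29%) and 3 in Tr TE (RICTOR, EIF4EBP1 and EIF4EBP2, 7.19%). With log2(FPKM + 1) the count was 1 in S Ribo-Seq (EIF4EBP1, 23.1%), and with the Ribo-Seq columns of C run 2 and S exchanged it was 2 in Tr Ribo-Seq (29.6%). The cause was not tested.

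Of the 120 log2 ratios of single members, past 2-fold or not, 47 changed sign with the other run's proliferating column, 2 with median-centred ratios and 0 with log2(FPKM + 1), and 23 of the 40 that use the exchanged columns did. Among ratios past 2-fold 6 changed sign. The exchange turned S Ribo-Seq to -1.03 for TSC1 and 1.45 for EIF4EBP1, and S TE to 0.85 for DDIT4, 1.74 for EIF4EBP1 and 0.15 for EIF4EBP2, which follows from its construction. The other run's proliferating column turned the Tr Ribo-Seq ratio of EIF4EBP2 to 0.77. No paired analysis was possible because the table gives combined columns and no single replicates, and for the same reason no replicate could be left out. Reads per gene were not recovered, and genes at low FPKM (TSC1, RICTOR and several list members) rest on fewer reads per base.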

Other observations

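Some genes in other parts of the pathway also differed between the proliferating columns, where 18.3% of all genes were past 2-fold in Ribo-Seq. Of the 18 genes of amino acid sensing, 3 were past 2-fold in Ribo-Seq between C run 2 and C run 1, a share no larger than that of all genes. All 3 were higher in C run 2: LAMTOR3, a Ragulator subunit, with a log2 ratio of 3.39, and the Rag GTPases RRAGB at 2.26 and RRAGA at 1.42. LAMTOR3 was at 2.63 FPKM in Ribo-Seq in C run 1, 4.93 in Q and 4.46 in preS, and at 27.6 in C run 2, 27.8 in S and 19.4 in Tr. Its RNA was at 3.23 in C run 1, 3.99 in Q and 4.47 in preS, and at 6.31 in C run 2, 9.36 in S and 5.4 in Tr. All 3 columns of run 2 were thus above all 3 of run 1 in both assays, as they were for RICTOR in Ribo-Seq. Of the 10 energy and stress brakes, 5 were past 2-fold in Ribo-Seq between the same columns (18.3% of all genes), 3 higher in C run 2 and 2 lower. Culture and run cannot be told apart in these values.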
